A study of Homo sapiens with 4 samples.

Results

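The collagen chain genes encode the polypeptides that wind together, 3 at a time, into the triple helices of the extracellular matrix. They were taken as every probe set on the array that carried a single gene symbol of the collagen chain form, with each gene represented by the probe set of highest mean over the 4 arrays. That gave 43 genes, read on 121 probe sets, of 18132 genes in all. COL17A1 was not analysed here.

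The arrays measured U87MG cells, an established human glioblastoma line. Of the 4 cultures, 2 had received the PCMV control vector and 2 a vector expressing NeuroD2, a neurogenic transcription factor of the basic helix-loop-helix family. All 4 were kept in serum-containing medium at 0.2% oxygen, so there is no culture at higher oxygen to compare with, and RNA was taken 48 hours after transfection. The share of cells that took up the vector is not given in the sources used here. The cultures are labelled as biological replicates without further detail, so each p-value measures the spread between these samples, which may be technical. Values are log2 probe set values.

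Fibrillar collagens such as types I, III and V form the cross-striated fibrils of connective tissue, with type V chains nucleating the fibrils and limiting their width. Network collagens build sheets, chiefly the type IV scaffold of basement membranes and the type VIII lattice under some endothelia. FACITs (fibril-associated collagens with interrupted triple helices) sit on fibril surfaces, and the remaining types include beaded filaments, anchoring fibrils, membrane-spanning chains and the multiplexins. Normal brain holds little fibrillar collagen outside vessels and meninges, while glioblastoma lines of mesenchymal character can make it in culture.

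NEUROD2 rose with its vector, from 5.46 and 5.35 on the control arrays to 7.37 and 7.82 on the NeuroD2 arrays (limma difference 2.19, adjusted p = 0.0044). It passed without either NeuroD2 array and missed the threshold without control replicate 1 (adjusted p = 0.141) or 2 (0.147). The 5 measured mesenchymal and glioma line markers read between 4.80 (CHI3L1) and 14.2 (VIM), and the 8 astroglial and neural stem markers between 3.15 (AQP4) and 7.50 (SLC1A3). Levels of different probe sets cannot be compared, and the table holds no detection calls, so these values do not settle which markers the cells lack. Spiked-in RNAs set the first control array apart. The 24 poly-A spike probe sets averaged 6.95 there against 7.96 to 8.03 on the other 3 arrays. The 18 hybridisation spike probe sets averaged 9.56 and 9.90 on the control arrays and 10.10 and 10.13 on the NeuroD2 arrays, and the part of this in the results was not tested.

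With the NeuroD2 vector, 5 collagen chain genes fell and 0 rose, and the other 38 did not pass an adjusted p of 0.05 in limma. The falls were in COL5A1, COL5A2, COL1A2, COL8A1 and COL1A1, by 1.54-fold to 1.78-fold. They are thus the type I pair, the main type V pair and 1 chain of type VIII. Among all genes 864 passed (4.77%), 2.96% as lower and 1.81% as higher, and among the collagen genes 11.6% passed as lower. At an unadjusted p below 0.05, 12 members were lower and 0 higher (27.9% lower), against 12.5% and 9.27% of all genes. The groups did not overlap in 18 members with lower values and 3 with higher values (41.9% and 6.98%), against 26.6% and 24.2% of all genes. The median difference over the 43 members was -0.06, beside a median of 0.00 over all genes. Of the 13 members at or above the median level of all genes, 4 fell (30.8%), beside 4.68% of the 9066 genes in that range. Of the 30 dimmer members, COL1A1 fell (3.33%), beside 1.24% of the dimmer genes. The level is a mean over all 4 arrays, so a fall lowers it, and COL1A1 lay above the median of 6.56 on both control arrays and below it on both NeuroD2 arrays. In whole cultures, fewer cells making a transcript and less transcript per cell cannot be told apart.

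**Figure D1:**
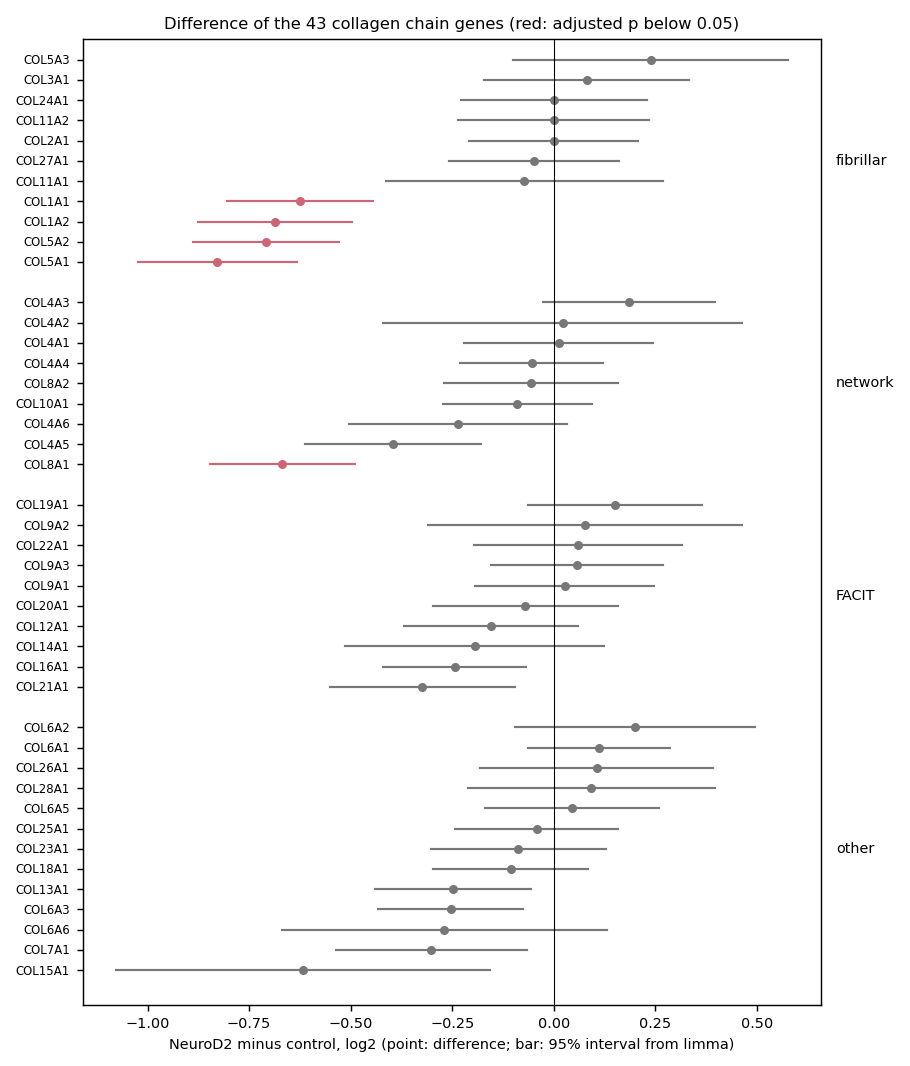
Difference between NeuroD2 and control arrays (log2, x axis) for each of the 43 collagen chain genes, ordered within the fibrillar, network, FACIT and other groups; points are limma estimates, bars their 95% intervals, and red marks an adjusted p below 0.05. The 4 red fibrillar genes and COL8A1 lie between -0.83 and -0.62, and most other members lie near 0.

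Among the 11 fibrillar genes, 4 fell (36.4%, against 2.96% of all genes) and 7 did not pass (median difference -0.05). COL5A1, which encodes the alpha-1 chain common to most type V collagen, showed the largest fall of any member. Its values were 10.47 and 10.38 with the control vector and 9.64 and 9.55 with the NeuroD2 vector, so both NeuroD2 arrays lay below both control arrays. The means were 10.42 ± 0.06 and 9.60 ± 0.06 (SD, n = 2 each), a difference of -0.83 with a standard error of 0.08 (95% interval -1.02 to -0.63; limma adjusted p = 0.00955). COL5A2, the chain that pairs with it in the usual type V heterotrimer, read 10.07 and 10.08 in controls and 9.34 and 9.40 with NeuroD2. The groups were again separate, by much more than the gap within either group, and the difference was -0.71 (standard error 0.07, adjusted p = 0.0109). The third type V gene, COL5A3, did not pass. It read 5.12 and 4.77 in controls and 5.09 and 5.28 with NeuroD2, with overlapping groups and a difference of 0.24 (95% interval -0.10 to 0.58). That difference was 0.42 without control replicate 1, 0.06 without control replicate 2 and 0.15 without NeuroD2 replicate 2.

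COL1A2 and COL1A1 encode the chains of type I collagen, the main fibre-forming collagen of skin, bone and tendon. COL1A2 read 10.02 and 9.95 in controls and 9.26 and 9.33 with NeuroD2, a difference of -0.69 (standard error 0.08, adjusted p = 0.0141). COL1A1 read 6.84 and 6.79 in controls and 6.19 and 6.18 with NeuroD2, a difference of -0.62 (standard error 0.07, adjusted p = 0.0149). In both genes every NeuroD2 value lay below every control value.

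The remaining fibrillar genes showed no comparable shift, but all lay below the median gene level of 6.56. The lowest value on the arrays was 2.65, and a fall in genes read near it may not show. COL3A1, whose type III collagen commonly mixes with type I in fibrils, read 4.07 and 3.83 in controls and 3.98 and 4.07 with NeuroD2 (difference 0.08, 95% interval -0.17 to 0.33). It lies next to COL5A2 on chromosome 2 with 0 coding genes between them in the RefSeq gene order, so 1 of these neighbours fell and the other did not pass. The cartilage genes COL2A1, COL11A1 and COL11A2, and COL24A1 and COL27A1, differed by -0.07 to 0.00, with all values between 3.56 and 5.84 and overlapping groups in all 5.

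**Figure D2:**
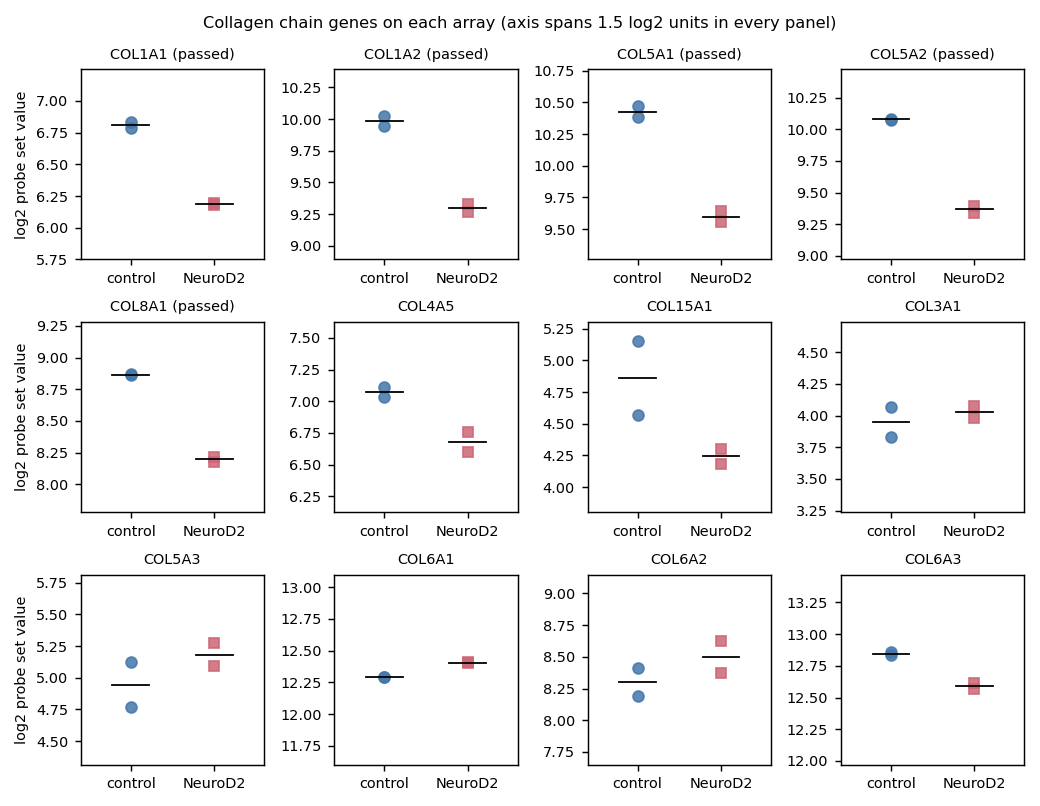
Log2 probe set values (y axis, spanning 1.5 units in every panel) of 12 collagen chain genes on the 2 control arrays (circles) and 2 NeuroD2 arrays (squares), with a line at each group mean. The groups are far apart for COL1A1, COL1A2, COL5A1, COL5A2 and COL8A1, closer for COL4A5 and COL6A3, and overlap for COL3A1, COL5A3 and COL6A2.

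NeuroD2 and its relatives bind E-boxes, the hexamer CANNTG. The bases upstream of COL5A1, which fell, and of COL5A3, which did not pass, are shown to set the 2 type V genes side by side, with any E-box in capitals. COL5A1 is on the plus strand (chr9:134641553-134641802) and COL5A3 on the minus strand (chr19:10010505-10010754), both from RefSeq on GRCh38.p14 and both covering the 250 bases before the annotated start.
COL5A1: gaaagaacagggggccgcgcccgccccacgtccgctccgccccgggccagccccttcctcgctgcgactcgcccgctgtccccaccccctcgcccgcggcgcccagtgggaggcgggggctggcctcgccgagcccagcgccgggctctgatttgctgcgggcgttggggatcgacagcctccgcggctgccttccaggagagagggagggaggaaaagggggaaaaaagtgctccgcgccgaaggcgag
COL5A3: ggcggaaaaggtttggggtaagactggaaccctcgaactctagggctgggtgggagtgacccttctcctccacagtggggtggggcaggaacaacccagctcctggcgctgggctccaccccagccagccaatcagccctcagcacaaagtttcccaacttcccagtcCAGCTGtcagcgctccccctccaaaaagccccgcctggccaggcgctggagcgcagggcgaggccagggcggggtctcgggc
The COL5A1 window held 0 E-boxes and the COL5A3 window held 1, of the form CAGCTG. Upstream windows were available for 31 of the 43 members, of which COL5A1 was the 1 that fell. CANNTG, a pattern that reads the same on both strands, was in 16 of these 31 windows (51.6%), against 62.2% of all 27305 windows of that length. Those 27305 windows were not limited to genes measured on the arrays. CAGCTG, 1 form of CANNTG and also the same on both strands, was in 3 member windows, those of COL5A3, COL16A1 and COL27A1 (9.68%, against 13.8% of all). CAGATG, another form, searched with its reverse complement CATCTG, was in 2 member windows, those of COL7A1 and COL10A1 (6.45%, against 12.2% of all). A missing match says only that these letters are not in the window.

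Each fall was also read on the genes' other probe sets, which share the arrays and in part the transcript. Of the 121 collagen probe sets, 12 passed when every probe set was tested on its own, all lower, and all belonged to the same 5 genes. COL5A1 was negative on 4 of 4 probe sets and passed on 3, with differences from -1.08 to -0.58. COL1A2 was negative on 6 of 6 and passed on 4, with differences from -0.69 to -0.02. COL5A2 was negative on 6 of 6 and passed on 3, from -0.79 to -0.08. COL1A1 was negative on 5 of 5 and passed on 1, from -0.71 to -0.25. COL8A1 passed on its brightest probe set alone, and its other 2 differed by -0.08 and 0.04 at levels between 3.10 and 3.43. Averaging all 3 put COL8A1 at -0.24 (adjusted p = 0.116), which did not pass. The same averaging gave -0.46 for COL1A1, -0.52 for COL1A2, -0.89 for COL5A1 and -0.43 for COL5A2, and all 4 passed. The probe sets used for COL5A1 and COL5A2 are of the s_at kind, which can match transcripts of more than 1 gene.

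**Figure D3:**
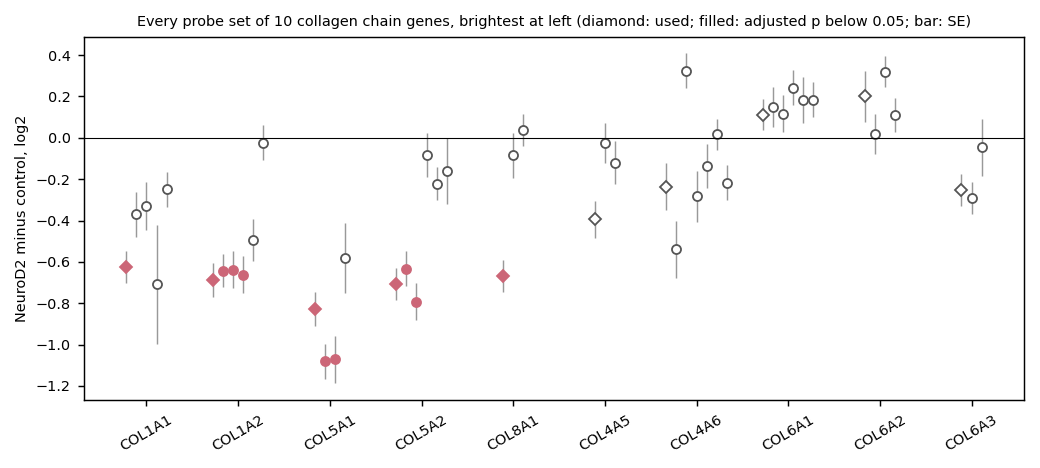
Difference between NeuroD2 and control arrays (log2, y axis, bars are standard errors) on every probe set of 10 collagen chain genes, ordered from brightest to dimmest within a gene; diamonds mark the probe set used for the gene and filled symbols an adjusted p below 0.05 over all probe sets. COL5A1 is low on all 4 of its probe sets, COL8A1 only on its brightest, and COL6A1 and COL6A2 lie above 0 where COL6A3 lies below.

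These calls needed all 4 arrays. None of the 5 genes passed when any 1 array was left out, which leaves 1 of the groups with a single array. The sizes moved little. COL5A1 differed by -0.87 to -0.79, COL5A2 by -0.74 to -0.68 and COL1A2 by -0.72 to -0.65 across the 4 omissions. COL8A1 ran from -0.69 to -0.65 and COL1A1 from -0.65 to -0.60. Without the first control array, where the spikes were low, the median difference over all members was -0.03, against -0.06 with all arrays.

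Of the 9 network genes, 1 fell and 8 did not pass (median difference -0.06), while 2.96% of all genes passed as lower. COL8A1, a chain of the short lattice-forming type VIII collagen, read 8.86 and 8.87 in controls and 8.17 and 8.22 with NeuroD2, a difference of -0.67 (standard error 0.07, adjusted p = 0.0125). Its partner chain gene COL8A2 read between 3.72 and 3.88 on every array, with overlapping groups (difference -0.06). At so low a level a fall may not show. COL10A1, the short-chain collagen of growth plate cartilage, read between 3.55 and 3.69 (difference -0.09).

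The 6 type IV genes lie in 3 head-to-head pairs, in which both genes start from a shared stretch of DNA and run apart. The pair COL4A1 and COL4A2, the ubiquitous basement membrane chains, has 126 bases between its RefSeq starts, shown because each gene starts at one end of it (chr13:110307158-110307283, plus strand, GRCh38.p14, 0 E-boxes).
COL4A1 and COL4A2 interval: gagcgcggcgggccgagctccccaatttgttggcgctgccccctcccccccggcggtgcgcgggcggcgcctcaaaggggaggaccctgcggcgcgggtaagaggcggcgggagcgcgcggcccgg
COL4A1 read 3.73 and 3.52 in controls and 3.66 and 3.62 with NeuroD2, a difference of 0.01 (95% interval -0.22 to 0.24). A fall may not show at so low a level. COL4A2 read 6.26 and 5.70 in controls and 5.96 and 6.05 with NeuroD2, a difference of 0.02 (95% interval -0.42 to 0.46). The control arrays of COL4A2 lay farther apart than its group means. The sign of COL4A1 turned with quantile normalization (-0.01) and when its probe sets were averaged (-0.03).

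The other 2 pairs encode the chains of specialised basement membranes such as those of the kidney filter. COL4A5 read 7.04 and 7.11 in controls and 6.60 and 6.76 with NeuroD2. The groups did not overlap, and the difference of -0.39 did not pass (95% interval -0.61 to -0.18, adjusted p = 0.0653). It passed with an intensity trend in the variance prior (adjusted p = 0.0411) and when only the brighter 9066 genes were tested (adjusted p = 0.0151). Its other 2 probe sets differed by -0.03 and -0.12, and averaging all 3 gave -0.18 (adjusted p = 0.236). COL4A6, whose RefSeq start is 379 bases from that of COL4A5 on chromosome X, read 5.72 and 5.86 in controls and 5.43 and 5.68 with NeuroD2 (difference -0.24, adjusted p = 0.285). Its 7 probe sets disagreed, from -0.54 to 0.32. In the pair COL4A3 and COL4A4 on chromosome 2, with 418 bases between the starts, the differences were 0.19 and -0.05, and neither passed. Averaging its probe sets put COL4A3 at -0.01.

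None of the 10 FACIT genes passed the adjusted test in limma (median difference -0.02). COL16A1 and COL21A1 were lower at an unadjusted p below 0.05, 2 of 10 against 12.5% of all genes. COL16A1, a minor component that links fibrils to other matrix, read 8.72 and 8.75 in controls and 8.50 and 8.49 with NeuroD2, with separate groups (difference -0.24, adjusted p = 0.124, and 0.0316 among the brighter genes). COL21A1 read 4.42 and 4.25 in controls and 3.96 and 4.06 with NeuroD2 (difference -0.32, adjusted p = 0.116). COL14A1, which binds type I fibrils, differed by -0.19, and by -0.01 to -0.38 when 1 array was left out. COL12A1, the other main partner of type I fibrils, read 8.37 and 8.38 in controls and 8.14 and 8.31 with NeuroD2 (difference -0.15, 95% interval -0.37 to 0.06). Its other 3 probe sets differed by 0.02 to 0.09, at mean levels of 3.35 to 4.59 against 8.30 for the one used. Averaging all 4 gave -0.0015. The type IX genes COL9A1, COL9A2 and COL9A3 and the genes COL19A1, COL20A1 and COL22A1 differed by -0.07 to 0.15.

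Type VI collagen forms beaded filaments around cells from 1 chain of each of its 3 main genes, none of which passed in limma. Their differences were not tested against each other. COL6A3, the large chain, read 12.83 and 12.86 in controls and 12.57 and 12.62 with NeuroD2, with separate groups and a difference of -0.25 (95% interval -0.43 to -0.07, adjusted p = 0.117). COL6A1 read 12.30 and 12.29 in controls and 12.40 and 12.41 with NeuroD2, with separate groups in the other direction and a difference of 0.11 (95% interval -0.06 to 0.29). COL6A2, next to COL6A1 on chromosome 21, read 8.41 and 8.19 in controls and 8.62 and 8.38 with NeuroD2, with overlapping groups and a difference of 0.20 (adjusted p = 0.402). All 6 probe sets of COL6A1 and all 4 of COL6A2 were positive, and all 3 of COL6A3 were negative, with 0 of these 13 passing. COL6A3 passed with an intensity trend (adjusted p = 0.00707) and when only the brighter genes were tested (adjusted p = 0.0296). COL6A5 and COL6A6, which encode chains that can stand in for COL6A3, differed by 0.04 and -0.27, and neither passed. COL6A6 differed by -0.03 without control replicate 1 and by -0.51 without control replicate 2.

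Among the remaining types, 0 of 8 genes passed in limma. COL15A1, COL7A1 and COL13A1 were lower at an unadjusted p below 0.05, as were 12.5% of all genes. COL15A1, a multiplexin of the basement membrane zone, had the largest difference of these at -0.62 but a wide interval (-1.08 to -0.16, adjusted p = 0.132). It read 4.57 and 5.15 in controls and 4.19 and 4.30 with NeuroD2, so the control arrays themselves lay far apart. Without the second control array the difference was -0.33, and without the first it was -0.91. COL7A1, the anchoring fibril chain that ties basement membrane to the tissue beneath, read 10.43 and 10.22 in controls and 10.05 and 10.00 with NeuroD2 (difference -0.30, adjusted p = 0.143, 0.0382 with the trend and 0.047 among the brighter genes). COL13A1, a membrane-spanning collagen of cell contacts, read 9.33 and 9.22 in controls and 9.04 and 9.02 with NeuroD2 (difference -0.25, adjusted p = 0.143, and 0.0418 among the brighter genes), and was negative on 4 of 4 probe sets. COL18A1, the multiplexin that is the source of endostatin, read 6.90 and 6.93 in controls and 6.76 and 6.86 with NeuroD2 (difference -0.11). COL23A1, COL25A1, COL26A1 and COL28A1 differed by -0.09 to 0.11 with overlapping groups.

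Collagen chains are hydroxylated and folded in the endoplasmic reticulum, trimmed of their propeptides outside the cell and crosslinked by lysyl oxidases. In the chain modification list, 2 of 14 measured genes fell and 12 did not pass (median difference -0.10). Of these 14 genes, 13 lay at or above the median level of all genes. In that range 4.68% of genes passed as lower, and the median difference was -0.03. The 2 genes that fell both act with the prolyl 3-hydroxylase family. P3H2, a prolyl 3-hydroxylase, read 8.85 and 8.61 in controls and 7.90 and 7.86 with NeuroD2 (difference -0.85, adjusted p = 0.0149). P3H4, a non-catalytic family member that takes part in lysine hydroxylation, differed by -0.57 (adjusted p = 0.0245) and did not pass with the replicate number as a block (adjusted p = 0.0501). CRTAP, another partner of prolyl 3-hydroxylase, differed by -0.27 without passing. Of 9 folding and secretion genes, 0 passed in limma. The 3 with an unadjusted p below 0.05 were MIA2 (-0.29), FKBP10 (-0.28) and SERPINH1, the collagen chaperone HSP47 (-0.27). The median difference of that list was -0.13, with all 9 genes at or above the median level of all genes. In that range 1724 of 9066 genes were lower at an unadjusted p below 0.05.

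Of 8 propeptide processing genes, 1 fell and 7 did not pass (median difference -0.06). PCOLCE2, an enhancer of C-propeptide removal, read 6.81 and 6.96 in controls and 5.77 and 5.96 with NeuroD2 (difference -1.02, adjusted p = 0.0102). TLL1, a tolloid protease, differed by -0.31 and ADAMTS2, the N-propeptidase, by 0.27, and neither passed. Of 5 crosslinking genes, LOXL1 fell and 4 did not pass (median -0.19). LOXL1 read 9.38 and 9.35 in controls and 8.80 and 8.82 with NeuroD2 (difference -0.56, adjusted p = 0.0194, and 0.0501 with the replicate block), while LOX differed by -0.23 and LOXL2 by -0.19. Of 8 measured fibril organisers, FN1 and LUM fell and 6 did not pass (median -0.18). FN1, the fibronectin on which type I fibrils are laid down, read 11.46 and 11.69 in controls and 10.97 and 10.92 with NeuroD2 (difference -0.63, adjusted p = 0.0318, and 0.0631 with the block). The small proteoglycan gene LUM differed by -1.19, and THBS1 by -0.51 without passing. THBS1 differed by -0.29 without control replicate 2 and by -0.083 when its probe sets were averaged. At or above the median level of all genes lay 2 of the 8 propeptide processing genes, 4 of the 5 crosslinking genes and 4 of the 8 fibril organisers. Among all genes 2.96% passed as lower, and 4.68% of those at or above the median level.

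Of 9 genes for collagen breakdown and uptake, 1 rose, 0 fell and 8 did not pass (median -0.03). The interstitial collagenase gene MMP1, which cleaves the types I and III triple helix, read 6.96 and 7.17 in controls and 9.52 and 9.46 with NeuroD2 (difference 2.43, adjusted p = 0.00092). The collagenolytic cathepsin gene CTSK differed by -0.27 and MRC2, the uptake receptor Endo180, by -0.23, and neither passed. Of 9 collagen receptors, 1 rose and 8 did not pass (median 0.07). ITGA2, the integrin chain for fibrillar collagen, read 10.08 and 10.22 in controls and 10.64 and 10.68 with NeuroD2 (difference 0.51, adjusted p = 0.0337). It missed the threshold when its probe sets were averaged (0.31, adjusted p = 0.078) and with the replicate block (adjusted p = 0.0604). DDR1, a receptor kinase for collagen, differed by -0.27 and LAIR1 by 0.26, and neither passed. Among all genes 1.81% passed as higher. Without either control array all 8 calls in these lists were lost. MMP1 passed without either NeuroD2 array, PCOLCE2 passed without NeuroD2 replicate 2 (adjusted p = 0.0449) and not without replicate 1 (0.071), and the other 6 passed in neither case.

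**Figure D4:**
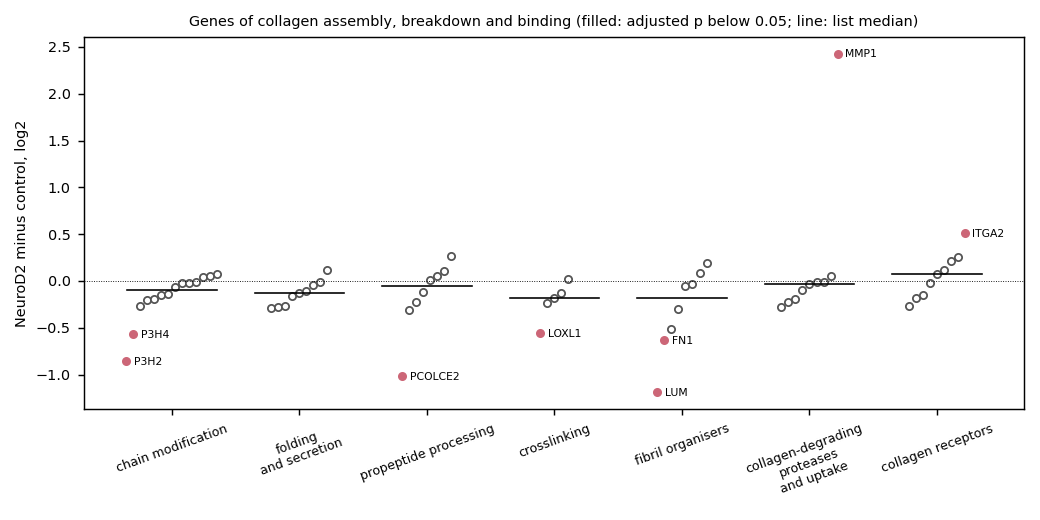
Difference between NeuroD2 and control arrays (log2, y axis) for each measured gene of 7 lists around collagen, with lines at the list medians and filled points for an adjusted p below 0.05. The filled points are P3H2, P3H4, PCOLCE2, LOXL1, FN1 and LUM below 0, and MMP1 and ITGA2 above 0.

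Markers of other cell types were read beside the collagen genes. Of 5 mesenchymal markers FN1, TGFBI (-0.54) and CHI3L1 (-0.51) fell, and VIM and CD44 did not pass. Of 8 astroglial and neural stem markers SOX9 (-1.01) and SLC1A3 (-0.41) fell and 6 did not pass, with 5 of the 8 positive and a median difference of 0.10. Of those 6, OLIG2 (0.39) and GFAP (0.24) were higher at an unadjusted p below 0.05, with separate groups. Of 6 fibroblast and pericyte markers, PDGFRB (-0.55) and FAP (-0.39) fell, and 4 did not pass. The list averaged 5.68 and 5.58 on the control arrays and 5.50 and 5.45 on the NeuroD2 arrays. Averaging probe sets put PDGFRB at -0.15 and SLC1A3 at -0.15, neither passing. None of 5 leukocyte, 5 endothelial and 5 epithelial markers passed in limma. At an unadjusted p below 0.05, 2, 0 and 1 of them were lower and 1, 1 and 1 higher. Among all genes 12.5% were lower and 9.27% higher at that threshold, and 2.96% passed as lower after adjustment. The part of these markers in the collagen results was not tested.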

How the data were processed

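RNA of 4 cultures was hybridised to Affymetrix PrimeView arrays after labelling with a 3' IVT kit, per the labels' protocols. The values used are the authors' deposited log2 probe set values. The log2 scale and the normalization between arrays were read from the values, while for the software, background correction and probe set summary the answer is: not given in the sources used here. With arrays, precision is limited by their number.

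Of 49395 probe sets, 44988 carried 1 gene symbol in the platform annotation and were used, 1832 carried several, 2473 none and 102 were Affymetrix controls. Groups were compared with limma 3.58.1 in R 4.3.3 (lmFit and eBayes, group as the only term, two-sided) over all 18132 genes, with Benjamini-Hochberg adjustment and a threshold of 0.05. The fit had 2 residual and 3.84 prior degrees of freedom. No permutation was run, since 2 against 2 gives an exact p of 0.333 at best. Upstream sequences came from RefSeq.

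The members and lists were chosen with earlier results of these data known. The text names NEUROD2, each collagen gene past the threshold, the 14 largest differences, the 3 largest of each group, chain partners and the 3 largest of each pathway list. Other collagen genes and markers are given for completeness and were chosen after their values were seen. Alternatives were the replicate block, leaving out each array, an intensity trend or robust estimation for the variance prior, quantile normalization or median centring of the arrays, dropping the dimmer genes, and averaging or separately testing a gene's probe sets.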

Additional observations from a re-analysis of the deposited data

How the results depend on the processing

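The directions of the 5 falls held under every alternative run, and all 5 passed under each alternative that kept 4 arrays and did not drop the gene, except COL8A1 with the mean of probe sets; COL1A1 lies below the median level and was dropped by that filter. Deviations from the group mean on arrays with the same replicate number had a correlation of 0.08 over all genes. With 2 arrays per group this cannot show whether the cultures were handled in pairs, and the labels do not say. With the replicate block 335 genes passed instead of 864, and 5 collagen genes still fell. The counts of falls were then 1 for chain modification, 0 for crosslinking and 1 for fibril organisers, with 0 rises among receptors. The intensity trend gave 2056 genes, with 8 collagen genes lower, 2 of them network and 2 other types, and 3 degradation and 2 folding genes lower. Testing the brighter genes alone gave 2081 genes and 9 collagen genes lower, among them 2 network, 1 FACIT and 3 other genes, and 2 degradation, 3 folding and 0 propeptide genes; the medians there were -0.25 for all collagen genes, -0.71 fibrillar, -0.53 network, -0.20 FACIT, -0.18 other, -0.056 receptors, -0.20 degradation, -0.47 fibril organisers and -0.17 propeptide processing. That filter tests fewer genes and also estimates the variance prior from them alone. Of these 9066 genes, 2777 had an unadjusted p below 0.05 in the main limma fit and 3378 in the filtered one. The mean of probe sets gave 0 network falls and 0 receptor rises, with medians of -0.076 network, -0.016 other, -0.11 crosslinking, -0.089 fibril organisers and -0.030 folding. Quantile normalization moved the network median to -0.077, and testing every probe set gave 1361 calls. NEUROD2 differed by 0.64 with the mean of its probe sets. COL4A1 turned to -0.0083 with quantile normalization and -0.026 with the mean of probe sets, and COL4A3 to -0.0051 with the latter. The causes were not tested.

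Leaving out 1 array gave 0 to 66 genes past the threshold (0 without either control array, 57 and 66 without NeuroD2 replicates 1 and 2), the lone remaining array being assumed to vary like the other group. Collagen falls were 0 in every case, as were falls in the fibrillar and network groups and in the chain modification, crosslinking and fibril organiser lists; propeptide falls ranged from 0 to 1, degradation rises from 0 to 1, and receptor rises were 0. Medians ranged from -0.098 to -0.024 for all collagen genes, -0.10 to -0.018 fibrillar, -0.10 to -0.061 network, -0.099 to 0.018 FACIT, -0.098 to -0.017 other, -0.12 to -0.070 chain modification, -0.20 to -0.078 folding, -0.15 to 0.039 propeptide processing, -0.22 to -0.14 crosslinking, -0.23 to -0.13 fibril organisers, -0.097 to 0.028 degradation and -0.11 to 0.074 receptors. NEUROD2 ranged from 1.97 to 2.42. Signs of COL4A1 (-0.092 to 0.12), COL4A2 (-0.26 to 0.30), COL6A5 (-0.017 to 0.10) and COL8A2 (-0.14 to 0.028) turned within these ranges.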

Other observations

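Many proteins outside the collagen family carry a short collagen-like helix, among them the complement C1q chains, collectins, ficolins, scavenger receptors and the C1q and TNF related proteins. A list of 40 such genes was added after the collagen results were seen, and 38 were measured. None of the 38 passed the adjusted test in limma, against 4.77% of all genes. At an unadjusted p below 0.05, 2 were lower and 0 higher, against 12.5% and 9.27% of all genes. Only 3 of the 38 lay at or above the median level of all genes, and of the dimmer genes 1.24% passed as lower. The median difference was 0.00 to 2 decimals, as over all genes. CTHRC1, a secreted protein with a collagen-like repeat, read 5.79 and 5.96 in controls and 4.98 and 5.36 with NeuroD2 (difference -0.71, adjusted p = 0.0514), and averaging its 5 probe sets gave -0.15. The scavenger receptor gene SCARA3 read 8.49 and 8.37 in controls and 8.19 and 8.22 with NeuroD2 (difference -0.22, adjusted p = 0.179).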
